A study of Mus musculus with 36 samples.

Results

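Chromatin accessibility was examined at Ifng, Tbx21, Eomes and Hlx, a cytokine gene and 3 transcription factor genes of the T helper 1 (Th1) program, in mouse CD4+ T cells lacking HP1α or HP1γ. The members were the ATAC-seq peaks whose midpoint lay nearest to a protein-coding transcription start site (TSS) of these genes in the GENCODE annotation of GRCm39, or that overlapped their gene bodies. This gave 83 of 71509 peaks, of which 34 belonged to Ifng, 9 to Tbx21, 29 to Eomes and 11 to Hlx. All 83 passed the filter on low counts. A peak is named here by its gene and the distance in kb of its midpoint from the main TSS, negative upstream and positive downstream in the direction of transcription, so that Ifng+54.3 lies 54.3 kb past the Ifng start.

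The 12 groups of 3 libraries each (36 in all) crossed the HP1 line, the genotype and the state of the cells. In the HP1α line, Hp1a-/- mice (KO, a germline deletion made with CMV-cre) were compared with Hp1a+/+ littermates (WT); in the HP1γ line, mice with floxed Hp1g and Cd4-cre (KO, a deletion under a T cell promoter) were compared with floxed littermates without Cre (WT), so that Cre itself also separated those genotypes. Both lines were of mixed (129/Sv x C57BL/6) background and male. Naive cells were CD4+CD62L+CD44low cells from the spleen. For the other states such cells (Tconv) were transferred into irradiated B6 hosts (C57BL/6J or CD45.1+) that received C57BL/6J and B6D2F1 bone marrow, with or without WT regulatory T cells (Treg) that had been expanded in culture, and donor-reactive TCR Vβ6+ Tconv were sorted from the spleen 3 weeks after the graft; they are called allospecific here, and "with Treg" where Treg were injected too. The study excluded 3 libraries of HP1α cells with Treg for poor quality (WT R3, KO R2 and KO R3), which left 2 WT libraries against 1 KO library there; peak levels of the excluded libraries and fits with them are given beside the HP1α calls with Treg, while group means and marker sums are over kept libraries unless stated. The labels do not say whether replicates were separate animals, so the p-values measure the spread between these libraries.

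Th1 cells make interferon-γ, the product of Ifng, and arise when interleukin-12 and interferon-γ signal through their receptors. T-bet, the product of Tbx21, is the T-box factor that directs this fate and acts on Ifng directly; eomesodermin, the product of Eomes, is a related T-box factor best known in CD8+ T cells and natural killer cells, and Hlx is a homeobox factor induced by T-bet that helps to maintain Ifng expression. HP1α and HP1γ bind methylated lysine 9 of histone H3 and take part in heterochromatin-dependent silencing, and ATAC-seq counts transposase insertions, so that a higher count marks more open DNA.

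The sequences below are the Ifng promoter, the upstream Ifng element that was already open in naive cells (Ifng-21.5), and the central 300 bases of the peak of each gene that differed between HP1α KO and WT cells with Treg. They are given 5′ to 3′ along the strand of the gene, from GRCm39: chr10:118276701-118276950 (plus strand, ending at the base before the start site), chr10:118255311-118255610 (plus), chr10:118331116-118331415 (plus, within the noncoding gene Gm67102), chr11:96987096-96987395 (minus, intergenic past the end of Tbx21), chr9:118194736-118195035 (plus, within the noncoding genes Gm69658 and Gm69659) and chr1:184266661-184266960 (minus, within the noncoding genes 1700112H15Rik and Gm70799). Capitals mark matches, on either strand, to the T-box word AGGTGT, the RUNX word TGTGGT, the AP-1 word TGANTCA and the STAT word TTCNNNGAA.
Ifng promoter: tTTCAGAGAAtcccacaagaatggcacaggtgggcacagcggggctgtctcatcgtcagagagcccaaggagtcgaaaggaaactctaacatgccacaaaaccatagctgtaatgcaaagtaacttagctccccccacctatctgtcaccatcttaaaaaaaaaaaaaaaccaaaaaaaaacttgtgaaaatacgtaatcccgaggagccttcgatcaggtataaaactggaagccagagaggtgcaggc
Ifng-21.5: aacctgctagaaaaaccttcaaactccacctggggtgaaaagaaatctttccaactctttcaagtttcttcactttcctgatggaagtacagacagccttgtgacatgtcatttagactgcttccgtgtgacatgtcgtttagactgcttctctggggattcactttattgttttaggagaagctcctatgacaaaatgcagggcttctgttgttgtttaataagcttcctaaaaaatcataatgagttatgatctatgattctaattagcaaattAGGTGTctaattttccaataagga
Ifng+54.3: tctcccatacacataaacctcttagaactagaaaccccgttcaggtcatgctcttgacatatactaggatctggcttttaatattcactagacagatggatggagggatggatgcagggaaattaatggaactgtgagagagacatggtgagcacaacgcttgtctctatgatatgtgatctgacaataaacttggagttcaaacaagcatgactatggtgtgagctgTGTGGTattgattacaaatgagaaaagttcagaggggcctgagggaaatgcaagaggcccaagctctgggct
Tbx21+18.9: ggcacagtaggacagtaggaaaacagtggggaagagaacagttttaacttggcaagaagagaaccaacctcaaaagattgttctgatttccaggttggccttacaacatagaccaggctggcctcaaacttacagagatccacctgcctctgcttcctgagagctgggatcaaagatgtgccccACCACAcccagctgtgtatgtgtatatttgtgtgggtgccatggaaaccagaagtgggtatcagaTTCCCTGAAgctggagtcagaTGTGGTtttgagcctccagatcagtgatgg
Eomes-112.4: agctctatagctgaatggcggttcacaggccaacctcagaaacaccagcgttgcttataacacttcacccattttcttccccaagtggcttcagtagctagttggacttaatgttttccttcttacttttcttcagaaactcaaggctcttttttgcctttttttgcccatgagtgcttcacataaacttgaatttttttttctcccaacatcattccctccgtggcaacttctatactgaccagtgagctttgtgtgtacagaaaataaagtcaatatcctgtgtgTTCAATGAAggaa
Hlx+198.0: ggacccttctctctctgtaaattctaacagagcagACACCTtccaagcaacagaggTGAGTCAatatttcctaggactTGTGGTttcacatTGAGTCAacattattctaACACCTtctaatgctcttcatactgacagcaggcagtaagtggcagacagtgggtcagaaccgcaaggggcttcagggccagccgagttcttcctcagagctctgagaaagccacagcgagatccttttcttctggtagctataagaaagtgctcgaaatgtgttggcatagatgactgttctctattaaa

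The Ifng promoter held 1 STAT match, Ifng-21.5 held 1 T-box match, Ifng+54.3 held 1 RUNX match and Eomes-112.4 held 1 STAT match. Tbx21+18.9 held 2 RUNX matches and 1 STAT match. Hlx+198.0 held 2 T-box, 2 AP-1 and 1 RUNX match within its first part, and no match in these windows overlapped another. These words are short: the T-box word was found in 18 of the 83 member windows of 300 bases (21.7%) against 18.2% of all 71509 such windows, and in 12.4% of 21592 promoters of 250 bases. The RUNX word was found in 25 members (30.1%, against 30.0% of all windows and 13.0% of promoters), the AP-1 word in 10 (12%, against 13.0% and 6.14%) and the STAT word in 7 (8.43%, against 8.89% and 7.71%). A match is a description of the letters and does not show that a factor was bound.

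The 36 libraries held 1.49 to 96.8 M reads in peaks (M, 1000000), with 51.0% to 63.5% of them in peaks near a TSS, and the 6 libraries of HP1α cells with Treg were the shallowest set at 1.49 to 50.7 M. HP1α WT with Treg R2 had 1.49 M, and 10 members had a count of 0 there, a level below 2.01 counts per M reads (CPM) with 3 reads as the floor. All 5 CD4+ T cell markers examined had a TSS peak, which was open in every group. Their sum was 852 to 1150 CPM in the HP1γ KO groups, which carry Cd4-cre, against 357 to 550 CPM in HP1γ WT. Over the groups, the Cd4 peak had the widest range of means, 2.83 to 6.22 log2 CPM per kb. The means of Cd3e ran from 3.12 to 4.69, of Cd3g from 2.90 to 3.84, of Cd5 from 2.99 to 3.87 and of Thy1 from 2.09 to 3.56. The part of the transgene in this sum was not tested. The CD8 locus had a TSS peak for 1 of 2 genes, at 29.5 to 35.9 CPM in naive and 2.66 to 8.67 CPM in allospecific cells without Treg, natural killer genes for 1 of 4 (at most 2.99 CPM) and B cell genes for 1 of 4 (Pax5). In bulk samples, fewer cells of a type and a smaller signal per cell cannot be told apart.

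Between naive and allospecific cells, the Ifng and Tbx21 start sites opened in both lines and both genotypes, whereas that of Eomes was called in none of these comparisons and that of Hlx only in HP1γ KO cells. In HP1γ WT cells the Ifng TSS peak (Ifng+1.1, chromosome 10, 118276051 to 118279970) stood at 1.34, 1.11 and 0.83 log2 CPM in the naive libraries and at 5.65, 6.11 and 6.19 in the allospecific libraries. In HP1α WT cells it stood at 0.80, 1.38 and 1.58 and at 5.87, 5.44 and 5.86. The naive and allospecific libraries did not overlap in either line; of all peaks, 30.4% lay above and 31% below without overlap in HP1α WT, and 37.1% and 38.4% in HP1γ WT. The log2 fold change was 5.0 ± 0.229 (SE, adjusted p = 2.93e-12, edgeR's quasi-likelihood test with Benjamini-Hochberg adjustment over all peaks) in HP1γ WT and 4.47 ± 0.212 (adjusted p = 6.87e-11) in HP1α WT.

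The Tbx21 TSS peak (Tbx21+3.1, chromosome 11, 96998581 to 97007480) was already open in naive cells, at 3.74, 3.84 and 3.74 log2 CPM in HP1γ WT, and reached 6.58, 7.21 and 7.29 in allospecific cells. It rose by 3.35 ± 0.202 on the log2 scale (adjusted p = 6.11e-11 by edgeR) in HP1γ WT and by 2.69 ± 0.162 (adjusted p = 4.95e-10) in HP1α WT. An element in a Tbx21 intron, Tbx21+11.2 (chromosome 11, 96993811 to 96996070), went from -1.69 to -0.53 log2 CPM in the naive HP1γ WT libraries to 6.00 to 6.74 in the allospecific libraries, a change of 7.79 ± 0.388 (adjusted p = 7.35e-12 by edgeR). In HP1α WT the same intronic peak changed by 6.30 ± 0.277 (adjusted p = 5.55e-11), and its 12 naive libraries (-1.69 to 0.08) lay far below its 12 allospecific libraries (5.06 to 6.74).

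The Eomes TSS peak (Eomes+0.5, chromosome 9, 118305311 to 118310320) stood at 4.26, 4.23 and 4.14 log2 CPM in naive and 4.79, 4.71 and 4.52 in allospecific HP1γ WT libraries, and the difference of 0.54 ± 0.294 was not called. In HP1α WT it was 0.00 ± 0.298, with overlapping libraries. The Hlx TSS peak (Hlx-0.5, chromosome 1, 184463711 to 184466940) differed by 0.62 ± 0.109 (adjusted p = 5.62e-05 by edgeR) in HP1γ WT and 0.86 ± 0.167 (adjusted p = 2.75e-04) in HP1α WT, which passed the test but not the fold limit: a peak is called here at an adjusted p under 0.05 with a log2 fold change beyond 1 in either direction. Its naive HP1γ WT libraries (4.15, 4.29 and 4.31 log2 CPM) lay below the allospecific libraries (4.64, 4.79 and 4.99). In HP1γ KO cells it went from 4.10, 4.08 and 4.17 to 4.96, 5.24 and 5.12, a rise of 1.03 ± 0.119 (adjusted p = 5.53e-07 by edgeR) that was called, and in HP1α KO cells it differed by 0.66 ± 0.154 (adjusted p = 0.00117), under the fold limit. The Eomes TSS peak differed by 0.76 ± 0.322 (adjusted p = 0.0474 by edgeR) in HP1γ KO and 0.11 ± 0.261 (adjusted p = 0.727) in HP1α KO cells.

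**Figure D1:**
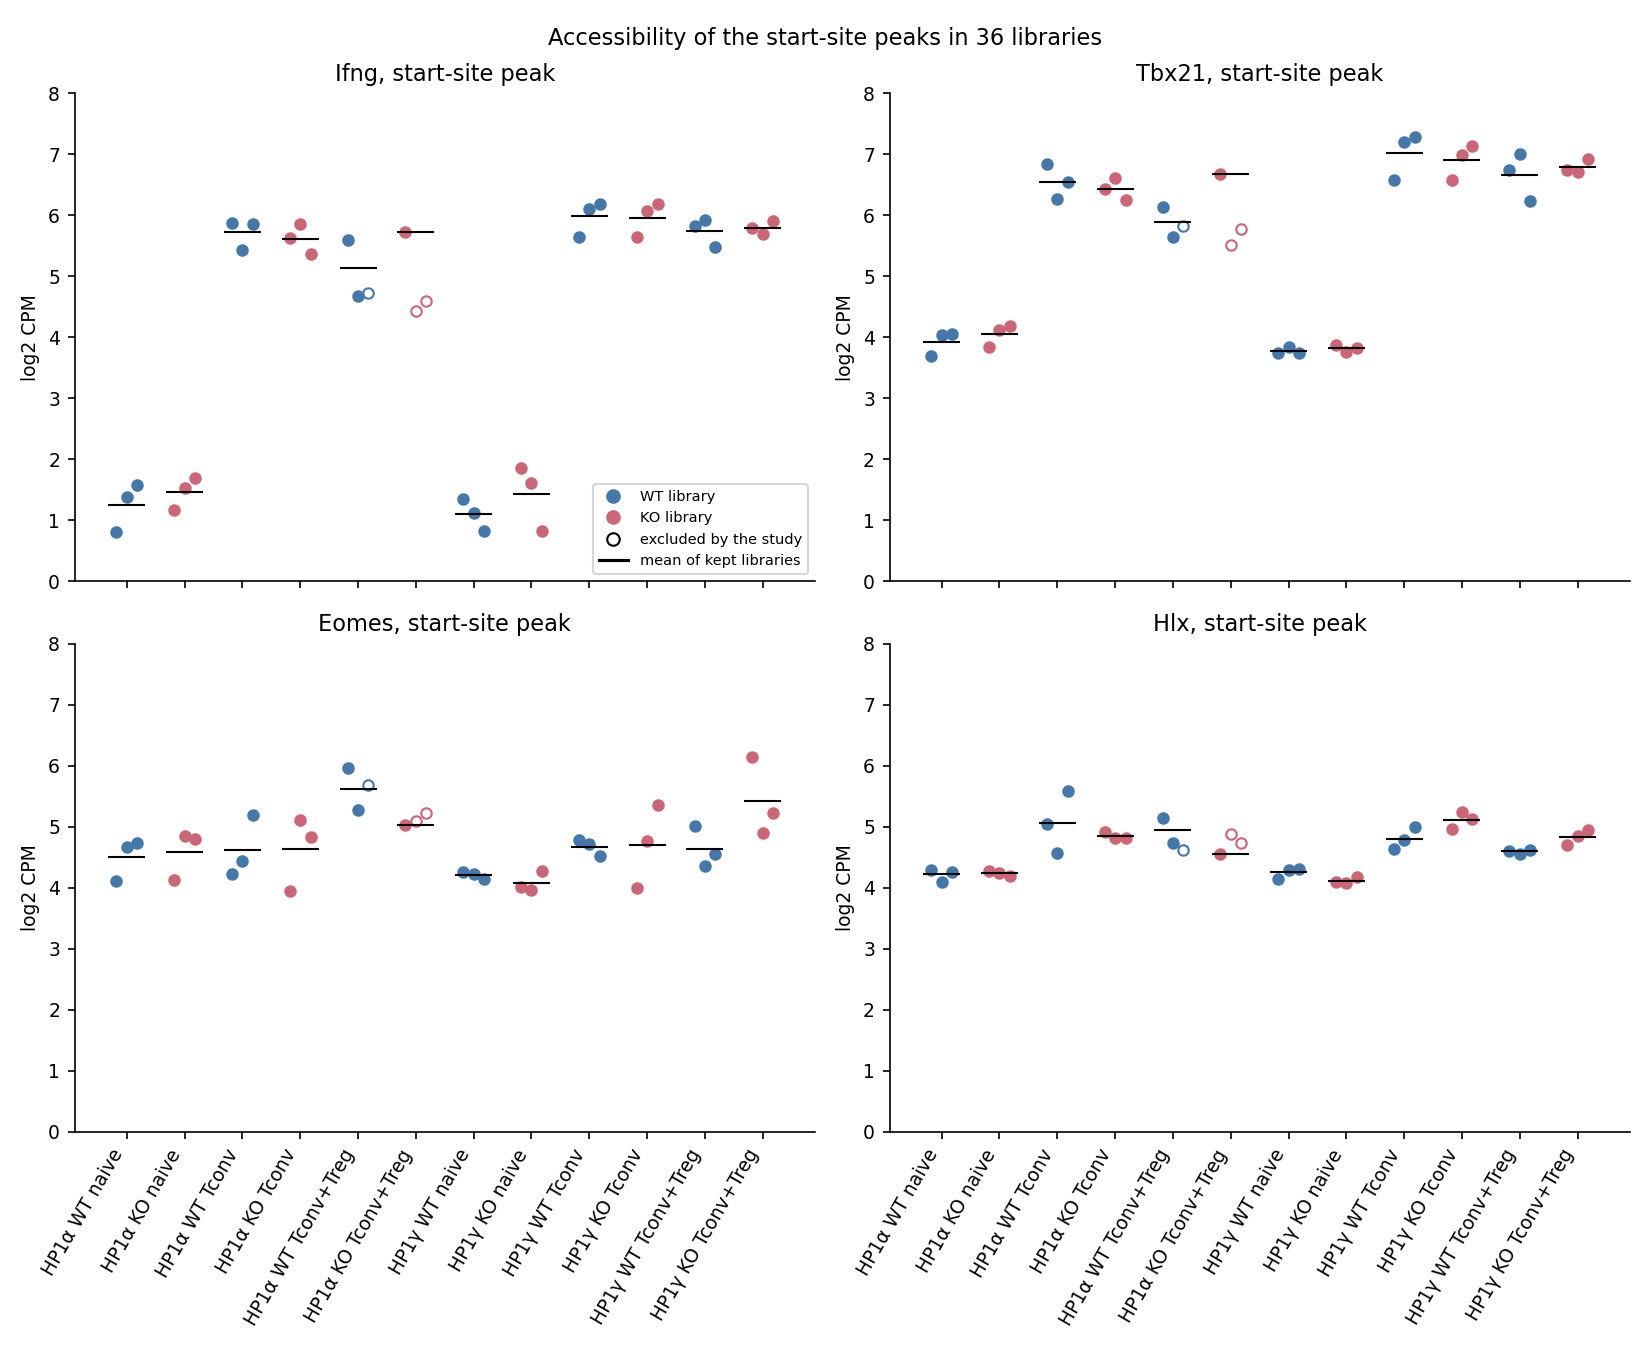
Level of the TSS peak of each gene (log2 CPM, y axis) in every library of the 12 groups (x axis), with the mean of the kept libraries as a bar. Ifng and Tbx21 separate naive from allospecific groups, Hlx less so, and the Eomes groups overlap.

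The order of the 12 groups was therefore a step for Ifng. The 4 naive groups had mean levels of 1.09 ± 0.26 to 1.46 ± 0.27 log2 CPM (SD, n = 3) and the 8 allospecific groups, with or without Treg, 5.14 ± 0.64 (SD, n = 2, HP1α WT with Treg) to 5.98 ± 0.29 (SD, n = 3, HP1γ WT). Neighbours within either run of groups differed by less than the larger of their SDs. For Tbx21 the naive groups ranged from 3.77 ± 0.06 to 4.04 ± 0.18 and the allospecific groups from 5.89 ± 0.34 (n = 2, HP1α WT with Treg) to 7.03 ± 0.39 (n = 3, HP1γ WT); the group next above the lowest of these, HP1α KO without Treg, stood at 6.43 ± 0.18. The Eomes means ran from 4.08 ± 0.16 (HP1γ KO naive) to 5.61 ± 0.49 (n = 2, HP1α WT with Treg), each step smaller than the larger SD of the neighbours. The Hlx means ran from 4.11 ± 0.05 (HP1γ KO naive) to 5.11 ± 0.14 (HP1γ KO without Treg). At Hlx the highest naive group, HP1γ WT at 4.25 ± 0.09, was followed by HP1α KO with Treg at 4.55 (n = 1, no SD), HP1γ WT with Treg at 4.60 ± 0.03 and HP1γ WT without Treg at 4.80 ± 0.18, each step larger than the SDs that could be computed. Over all 3 libraries the means of HP1α WT and KO cells with Treg were 5.0 ± 0.51 and 4.92 ± 0.70 at Ifng, 5.87 ± 0.24 and 5.99 ± 0.61 at Tbx21, 5.64 ± 0.35 and 5.11 ± 0.10 at Eomes and 4.84 ± 0.27 and 4.72 ± 0.16 at Hlx (SD, n = 3), so that the KO group moved to the lowest allospecific place at Ifng and to the place above the lowest at Tbx21.

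Per kb of peak, the order of the genes changed with activation. In naive HP1γ WT cells the Ifng TSS peak had 0.539 CPM per kb, Tbx21 1.53, Eomes 3.69 and Hlx 5.88. In allospecific HP1γ WT cells without Treg the same peaks had 16.3, 15, 5.09 and 8.68 CPM per kb. Ifng thus went from the lowest density of the 4 to the highest.

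Over the 12 group means, the TSS levels of Ifng and Tbx21 had a Pearson r of 0.99, those of Ifng and Hlx 0.88, of Ifng and Eomes 0.59 and of Eomes and Hlx 0.57. The groups share libraries, scaling and the contrast of naive and allospecific cells, so these values are descriptions. Among 13047 genes with a TSS peak, the likest to Ifng were Nkg7 (r = 0.997), which encodes a cytotoxic granule protein, Bhlhe40 (0.996), a transcription factor, and Cxcr3 (0.996), a chemokine receptor. Cxcr3 (0.997), Ifi211 (0.995) and Lgals3 (0.994) were likest to Tbx21, while the likest to Eomes were Kif3b (0.947), Il11 (0.945) and Tmem82 (0.943) and to Hlx Pla2g5 (0.934), Crispld2 (0.929) and Cass4 (0.928).

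Over all members, 50 of 83 peaks rose and 10 fell from naive to allospecific HP1α WT cells, 60.2% and 12%, against 24.9% and 17.5% of all peaks. In HP1γ WT cells 54 rose and 10 fell, 65.1% and 12%, against 24.5% and 22% of all peaks. The KO cells gave 46 and 10 in the HP1α line (background 23.5% and 19%) and 53 and 10 in the HP1γ line (22.4% and 20.6%). The share of members that rose was thus above the background in each case. The median member changed by 1.98, 1.78, 2.12 and 1.88 on the log2 scale in HP1α WT, HP1α KO, HP1γ WT and HP1γ KO cells, against medians of all peaks from -0.0525 to 0.0757. Of the members, 39 were called higher in all 4 comparisons, 8 lower in all 4, 12 in none, and 0 had calls in opposite directions. Between the same naive and allospecific libraries the Pax5 peak went from 1.94 to 3.68 CPM to 4.48 to 6.71 CPM, the natural killer gene from 0.0977 to 0.635 to 0.651 to 2.99 CPM and the sum of both Treg genes from 170 to 237 to 104 to 162 CPM; their part was not tested.

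By gene, Tbx21 gained most evenly: 8 of its 9 peaks rose in HP1α WT and 9 of 9 in HP1γ WT cells, and 0 fell. Ifng gained 25 and 28 of its 34 peaks and lost 2 in each line. Eomes gained 12 of 29 and lost 7 (HP1α WT) or 6 (HP1γ WT). Hlx gained 5 of 11 in either line and lost 1 and 2.

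Listed by position, the 34 Ifng peaks ran from 36.5 kb upstream to 202.9 kb downstream of the start site and fell into stretches with different behaviour. Upstream lay Ifng-36.5, Ifng-34.1, Ifng-28.0, Ifng-21.5 and Ifng-5.5, all intergenic. Ifng+1.1 covered the start site and Ifng+5.5 lay just past the gene. The 9 peaks from Ifng+19.3 to Ifng+54.3 lay within the noncoding gene Gm67102, the 12 peaks from Ifng+65.9 to Ifng+151.9 (chromosome 10, 118341751 to 118429160) within Ifngas1, the noncoding gene known for promoting Ifng expression, and the 6 from Ifng+158.5 to Ifng+202.9 past it.

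The most open Ifng peaks in naive cells were Ifng-21.5 (chromosome 10, 118254001 to 118256920), Ifng+158.5 (118434691 to 118436300) and Ifng+192.2 (118467871 to 118470400). Ifng-21.5 had 6.27, 6.35 and 6.50 log2 CPM (lowest, median and highest) over the 12 naive libraries and 5.49, 5.93 and 6.13 over the 12 allospecific libraries without Treg, a decrease of 0.54 ± 0.126 in HP1α WT and 0.19 ± 0.0958 in HP1γ WT that was called in neither (adjusted p = 0.00149 by edgeR but under the fold limit, and 0.0888). Ifng+192.2 fell from 6.34, 6.50 and 6.70 to 3.94, 4.43 and 4.73, a log2 fold change of -2.13 in HP1α WT and -1.82 in HP1γ WT, both called. Ifng+202.9 fell too, by 2.33 and 2.84 on the log2 scale. These were the 2 Ifng peaks lost on activation.

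Close to the gene the opposite was seen. Ifng-5.5 (chromosome 10, 118270901 to 118272050) had -2.81, -1.40 and 0.08 log2 CPM over the 12 naive libraries and 3.34, 4.64 and 5.03 over the 12 allospecific libraries, with log2 fold changes of 5.98 (HP1α WT) and 6.06 (HP1γ WT). Within Ifngas1, Ifng+88.8 (chromosome 10, 118365411 to 118366200) rose by 5.29 ± 0.304 and 6.85 ± 0.644.

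**Figure D2:**
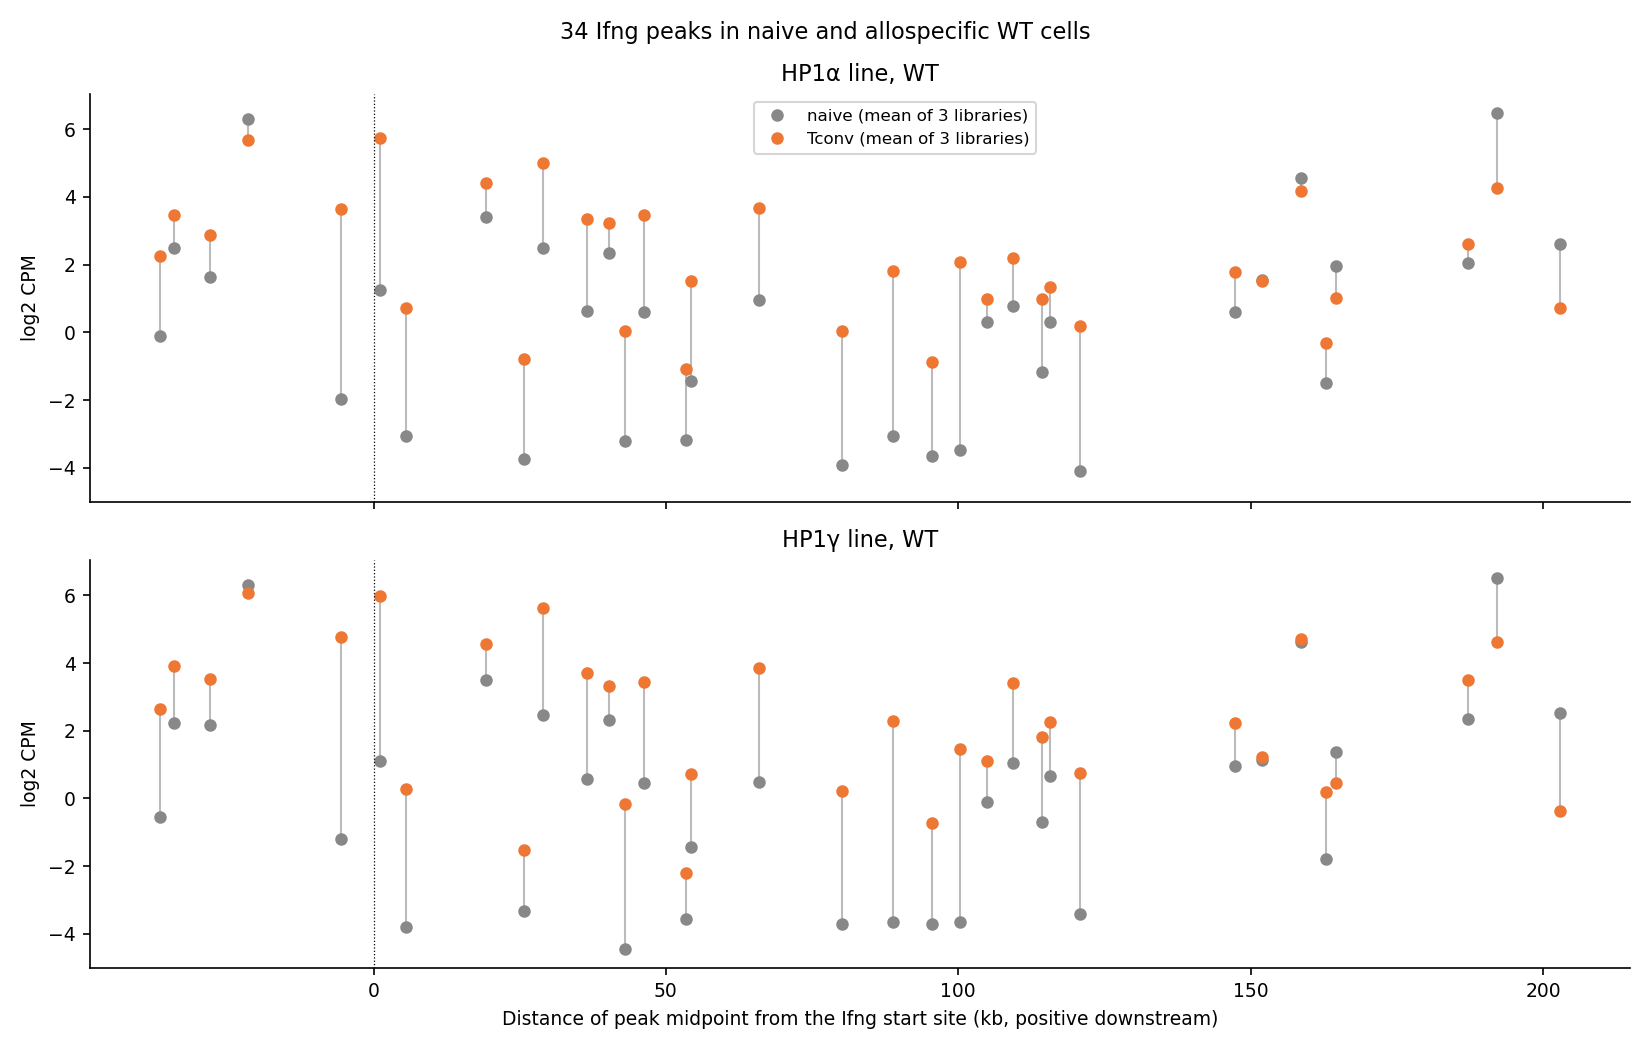
Level of the 34 Ifng peaks (log2 CPM, y axis) by distance from the Ifng start site (kb, x axis) in WT cells of each HP1 line; points are means of 3 libraries, naive in grey and allospecific without Treg in orange, and grey lines join the means of a peak. Most peaks rise, while Ifng+192.2 and Ifng+202.9 fall and Ifng-21.5 stays near 6.

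The share of the Ifng reads that each peak held changed with them. In the 12 naive libraries Ifng-21.5 held 29.7%, 31.6% and 32.2% (lowest, median and highest) of all reads in the 34 Ifng peaks and Ifng+192.2 held 32.7%, 35.1% and 38.8%. Together with Ifng+158.5 they held 72.3%, 75.5% and 79.3%. In the 12 allospecific libraries without Treg these 3 peaks held 23.8%, 28.9% and 31.4%, and the TSS peak went from 0.63%, 0.993% and 1.37% to 12.2%, 16.2% and 17.8%. Naive and allospecific libraries did not overlap in any of these shares. The sum over the 34 peaks changed less, from 246, 257 and 286 CPM to 277, 372 and 437 CPM, with overlapping ranges. For Tbx21 the sum over 9 peaks went from 49.1, 53.9 and 64.8 to 212, 280.5 and 442 CPM without overlap.

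At Eomes, peaks of opposite direction lay in separate stretches upstream of the gene, whose limits were chosen after the values were seen and so carry no test. The 15 peaks from 162.8 to 103.3 kb upstream (chromosome 9, 118144371 to 118204770) had 10, 10, 9 and 12 peaks called higher and 0 lower in HP1α WT, HP1α KO, HP1γ WT and HP1γ KO allospecific cells, with median log2 fold changes of 2.47, 2.46, 2.61 and 3.19. The 6 peaks from 90.24 to 72.84 kb upstream (118216571 to 118235000) had 6, 6, 5 and 6 peaks called lower and 0 higher, with medians of -2.28, -2.19, -1.98 and -1.92. Both genotypes of both lines showed this division.

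**Figure D3:**
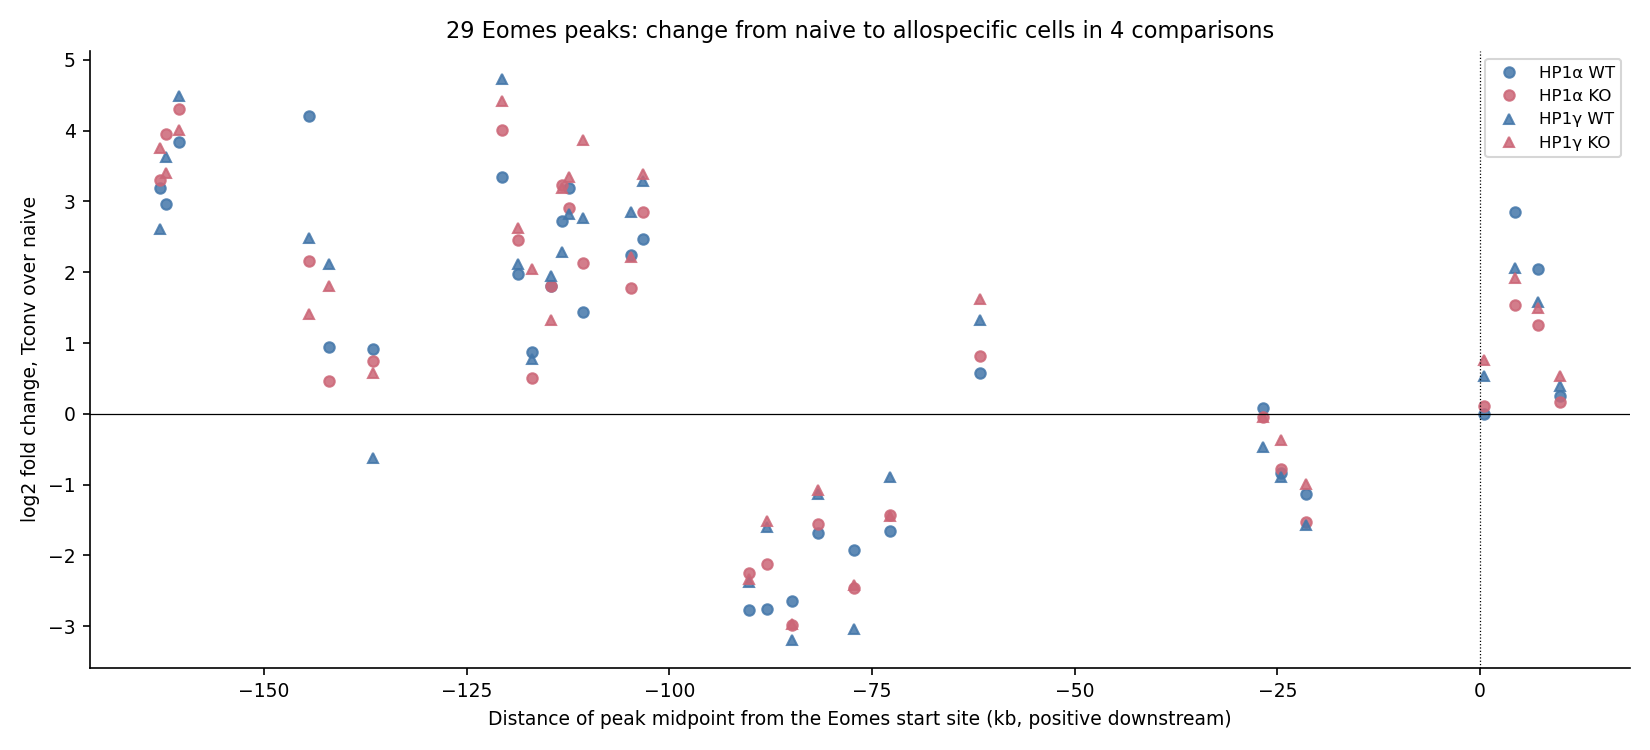
Log2 fold change of the 29 Eomes peaks from naive to allospecific cells without Treg (y axis) by distance from the Eomes start site (kb, x axis), with a symbol for each line and genotype. Peaks beyond 103.3 kb upstream lie above 0 with a single exception in HP1γ WT, those from 90.24 to 72.84 kb lie below 0, and the peak at the start site lies near 0.

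At Hlx, the 5 peaks from Hlx+87.2 to Hlx+198.0 were called higher in WT cells of both lines. Hlx+198.0 (chromosome 1, 184266211 to 184267410) rose by 5.63 ± 0.384 in HP1α WT and 5.79 ± 0.555 in HP1γ WT, and Hlx+159.2 (184305361 to 184305890) by 5.79 and 4.05. Further out, Hlx+264.6 changed by -2.02 and -3.81 and was called lower in both, and Hlx+291.2 by 0.23 and -0.21, not called. These peaks are members because no other protein-coding start site is nearer; contact with Hlx was not measured.

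In naive cells, the genotypes of either line had no called difference among the members: 0 of 83 in HP1α KO against WT naive cells (background 0.0042% higher and 0.0014% lower) and 0 of 83 in the HP1γ line (0.133% and 0.00699%). At an unadjusted p under 0.05 by edgeR there were 0 and 2 members, and DESeq2 called 0 and 6. HP1γ KO naive R1 and R2, with 33.9 and 32.4 M reads, sat above R3 (82.4 M) at some distal peaks. At Hlx+198.0, for example, R1 to R3 had 0.12, -0.64 and -2.28 log2 CPM. The part of depth was not tested beyond the fit with log2 depth as a covariate, which also called 0 members.

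In allospecific cells without Treg, HP1α KO and WT again gave 0 calls among 83 (background 0.00839% and 0.0126%), with 6 members at an unadjusted p under 0.05 by edgeR and 0 calls by DESeq2. Without HP1α KO allospecific R1 there was 1 call. In the HP1γ line 2 members were called higher and 0 lower, 2.41% against a background of 1.69% and 1.66%, both at Hlx. Hlx+198.0 had 2.51, 2.30 and 2.53 log2 CPM in WT and 3.50, 3.74 and 3.77 in KO libraries, and it rose by 1.24 ± 0.225 (adjusted p = 0.00327 by edgeR). Hlx+159.2 had 0.77, 0.77 and 1.03 in WT and 2.03, 1.94 and 1.95 in KO, a rise of 1.15 ± 0.233 (adjusted p = 0.00665 by edgeR). The KO and WT libraries did not overlap at either peak (10.4% of all peaks lay above and 8.45% below without overlap), and without HP1γ KO allospecific R1 there were 4 calls. DESeq2 gave 1 call, Hlx+198.0 (adjusted p = 0.031), with Hlx+159.2 at an adjusted p of 0.071, and the legacy form of the quasi-likelihood fit gave 0, at adjusted p = 0.0657 and 0.127. In these HP1γ cells the CD8 gene had 2.66 to 4.34 CPM in WT and 4.83 to 5.62 CPM in KO. The natural killer gene had 0.821 to 1.46 and 1.59 to 1.78 CPM, and the 2 myeloid genes summed to 27.5 to 30.1 and 24.1 to 26.9 CPM. The B cell and Treg genes overlapped, and the part of these markers was not tested.

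With Treg, HP1α KO and WT cells differed at 1 peak of each gene: 1 of 83 members was higher in KO (1.2%, background 0.218%) and 3 were lower (3.61%, background 1.42%), with 25 members at an unadjusted p under 0.05. The peak that was more open in KO cells lay just past Tbx21, and the less open peaks lay at Ifng, Eomes and Hlx, all of them away from the start sites. The median member stood at -0.53 on the log2 scale against -0.11 for all peaks. With all 6 libraries 0 were higher and 3 lower (backgrounds 0.0126% and 0.729%).

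Tbx21+18.9 (chromosome 11, 96986881 to 96987610) had 1.25 and 2.11 log2 CPM in the kept WT libraries and 3.50 in the kept KO library, and it rose by 2.13 ± 0.462 (adjusted p = 0.0244, edgeR's quasi-likelihood test). The 3 excluded libraries had 1.71 (WT R3), 1.89 (KO R2) and 2.39 (KO R3), so that with all 6 the KO and WT libraries overlapped and the difference, 1.74 ± 0.499 (adjusted p = 0.123 by edgeR), was not called. Among cells without Treg this peak had 2.88 to 3.13 log2 CPM in HP1α WT and 3.17 to 3.50 in HP1α KO libraries, above the WT libraries with Treg and the excluded KO libraries but not the kept KO library.

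Eomes-112.4 (chromosome 9, 118194431 to 118195340) had 3.30 and 3.10 log2 CPM in WT and 0.38 in KO cells with Treg, and it fell by 2.94 on the log2 scale (SE 0.501, adjusted p = 0.00515 by edgeR). The excluded libraries had 2.97 (WT) and 1.51 and 1.49 (KO). With all 6 libraries KO and WT did not overlap, and the log2 fold change was -2.40 ± 0.41 (adjusted p = 0.00503 by edgeR).

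Ifng+54.3 (chromosome 10, 118330621 to 118331910) had 3.43 and 3.56 log2 CPM in WT and 1.54 in KO, with 3.38 (WT), 2.47 and 2.39 (KO) in the excluded libraries. Its log2 fold change was -1.92 ± 0.397 (adjusted p = 0.0203 by edgeR), and -1.53 ± 0.325 (adjusted p = 0.027) with all 6, without overlap. Hlx+198.0 had 4.28 and 3.27 in WT and 2.51 in KO, with 3.15 (WT), 2.26 and 2.63 (KO) in the excluded libraries, and changed by -1.65 ± 0.317 (adjusted p = 0.0109 by edgeR), or -1.44 ± 0.277 (adjusted p = 0.0115) with all 6. At these peaks every WT library with Treg, kept or excluded, lay above every KO library, as did 5.53% of all peaks, with 5.5% the other way; with the kept libraries 33.8% and 31.4% of all peaks lay below and above without overlap.

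**Figure D4:**
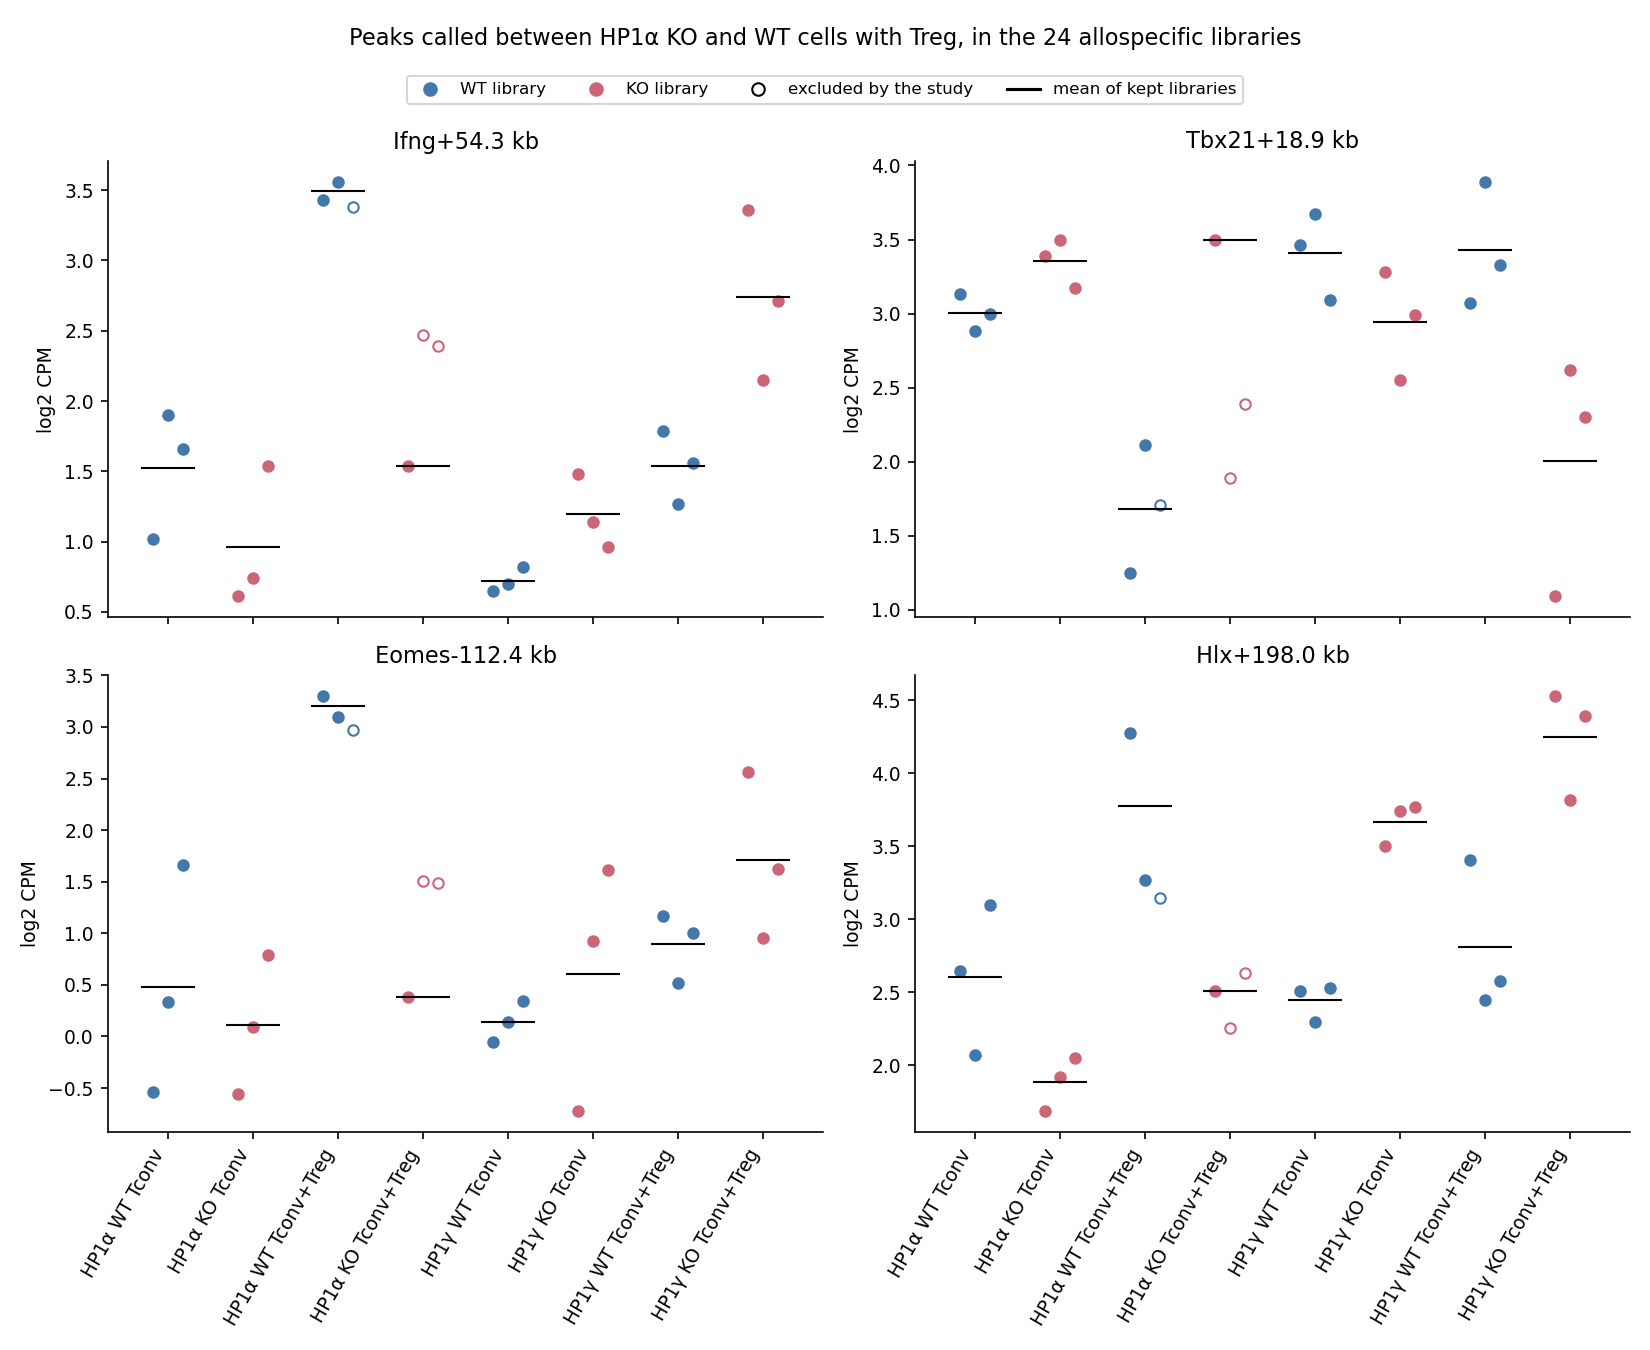
Level (log2 CPM, y axis) of the 4 peaks called between HP1α KO and WT cells with Treg, in the 24 allospecific libraries of both HP1 lines (x axis, by group); blue points are WT and red points KO libraries, open circles are libraries the study excluded and bars are means of kept libraries. The mean of HP1α WT cells with Treg lies above the other HP1α groups at Ifng+54.3, Eomes-112.4 and Hlx+198.0 and below them at Tbx21+18.9.

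These HP1α calls changed with the libraries used. Without WT with Treg R1 there were 0 calls, with Hlx+198.0 at -0.70, Ifng+54.3 at -1.96, Eomes-112.4 at -2.69 and Tbx21+18.9 at 1.47 on the log2 scale, without WT with Treg R2 there were 2 (0 higher and 2 lower), and with the log2 of depth as a covariate there were 0; where a group was left with 1 library, that library was assumed to vary like the other groups. The WT libraries had 12.7 and 1.49 M reads and the KO library 50.7 M, and the part of depth in these differences was not tested otherwise. Of 4 B cell genes 1, Pax5, had a TSS peak, and it was at 13.3 to 17.1 CPM in WT and 5.21 CPM in KO cells with Treg, against 4.55 to 6.29 CPM in WT cells without Treg. The 2 of 4 myeloid genes with a TSS peak summed to 15.4 to 16.0 CPM in WT and 25.3 CPM in KO cells with Treg, and both Treg genes to 105 to 170 and 141 CPM. The 5 CD4+ T cell markers summed to 218 to 312 CPM in WT and 433 CPM in KO cells with Treg. The part of these markers in the result was not tested.

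At the start sites, the HP1α KO cells with Treg differed from WT by 0.28 ± 0.276 (Ifng), 0.64 ± 0.248 (Tbx21), -0.80 ± 0.449 (Eomes) and -0.52 ± 0.29 (Hlx) on the log2 scale, and none was called; with all 6 libraries the differences were 0.02 ± 0.322, 0.27 ± 0.285, -0.66 ± 0.333 and -0.25 ± 0.254, with none called. The Tbx21 intronic peak Tbx21+11.2 had 4.42 and 3.42 log2 CPM in WT and 5.53 in KO, a difference of 1.23 ± 0.338 that missed the threshold (adjusted p = 0.0721 by edgeR). The excluded libraries had 4.25 (WT), 3.92 and 4.35 (KO) there, so that 2 of the 3 KO libraries lay within the range of the WT libraries, and with all 6 the difference was 0.79 ± 0.401 (adjusted p = 0.467 by edgeR). Within the far Eomes stretch described above, 0 of 15 peaks had a log2 fold change above 0 and the median was -1.51, or 0 of 15 and -1.16 with all 6 libraries, where 44.1% and 45.4% of all peaks were above 0. Among the kept libraries this rested on WT with Treg R1: without it 9 of 15 were above 0 (55.1% of all peaks) and the median was 0.81. With the excluded libraries, 1 of 15 was above 0 (47.9% of all peaks) and the median was -0.83 without WT with Treg R1, and 3 of 15 were above 0 (53.6%) and the median was -0.63 without KO with Treg R1. In the HP1γ line the same stretch had 13 of 15 peaks above 0 with Treg (median 0.73) and 15 of 15 without (median 0.88) in KO against WT cells. The medians of all peaks were -0.02 and 0.02, and their share above 0 is not given here. With HP1γ KO with Treg R1 left out, Eomes-120.7, Eomes-112.4, Eomes-110.7 and Eomes-103.3 shrank to 0.54, 0.36, 0.39 and 0.54.

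In HP1γ cells with Treg, 7 of 83 members were higher in KO and 5 lower, 8.43% and 6.02% against backgrounds of 6.48% and 5.38%, so the share was near that of all peaks, and 37 members had an unadjusted p under 0.05. The higher peaks were 3 at Hlx and 3 at Eomes, away from the start sites, and Ifng+54.3, and the lower peaks were 2 at Ifng, 2 at Tbx21 and 1 at Eomes. With the GC correction the split was 8 higher and 1 lower, with the replicate block and GC correction together 11 and 2, with DESeq2 6 and 2, with library size alone 6 and 7 and with depth as a covariate 4 and 5. The replicate block alone gave 7 and 5.

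Ifng+54.3 had 1.79, 1.27 and 1.56 log2 CPM in HP1γ WT and 3.36, 2.15 and 2.71 in HP1γ KO cells with Treg. The libraries did not overlap (15.3% of all peaks lay above and 16.4% below without overlap), and the peak rose by 1.29 ± 0.276 (adjusted p = 0.0038 by edgeR). Hlx+198.0 had 3.41, 2.45 and 2.58 in WT and 4.53, 3.82 and 4.39 in KO, again without overlap, and rose by 1.32 ± 0.215 (adjusted p = 0.000444 by edgeR).

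Tbx21+18.9 moved the other way. It had 3.07, 3.89 and 3.33 log2 CPM in WT and 1.09, 2.62 and 2.30 in KO libraries, without overlap, and the log2 fold change was -1.35 ± 0.309 (adjusted p = 0.00573 by edgeR). Another Tbx21 peak, Tbx21+8.3 in an intron (chromosome 11, 96997641 to 96998130), had 0.86, 1.56 and 0.65 in WT and 0.02, 0.01 and 0.31 in KO, and its log2 fold change was -1.05 ± 0.313 (adjusted p = 0.0203 by edgeR).

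At Ifng, the distal peaks Ifng+158.5 and Ifng+88.8 were less open in HP1γ KO cells with Treg. Ifng+158.5 had 4.45, 4.55 and 4.36 log2 CPM in WT and 3.04, 3.78 and 3.44 in KO, a log2 fold change of -1.01 ± 0.197 (adjusted p = 0.00208 by edgeR). Ifng+88.8, within Ifngas1, had 1.35, 2.22 and 1.81 in WT and -1.21, 1.24 and 0.95 in KO, a log2 fold change of -1.22 ± 0.401 (adjusted p = 0.0352 by edgeR). KO and WT did not overlap at either peak, and KO with Treg R1 was the lowest library at both.

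Eomes-112.4, the Eomes peak of the HP1α comparison, had 1.17, 0.52 and 1.0 log2 CPM in HP1γ WT and 2.56, 0.95 and 1.62 in HP1γ KO cells with Treg, which overlapped, and the difference of 0.99 ± 0.415 was not called (adjusted p = 0.0928 by edgeR). Its neighbour Eomes-120.7 had 3.55, 2.73 and 2.50 in WT and 5.12, 3.43 and 3.83 in KO, and was called at 1.26 ± 0.375 (adjusted p = 0.0246 by edgeR) although KO R2 lay below WT R1. Of the start sites, Eomes+0.5 had 5.01, 4.35 and 4.56 in WT and 6.15, 4.89 and 5.23 in KO and differed by 0.86 ± 0.295 (adjusted p = 0.0466 by edgeR), under the fold limit. The other start sites differed by 0.03 ± 0.16 (Ifng), 0.08 ± 0.176 (Tbx21) and 0.25 ± 0.118 (Hlx).

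**Figure D5:**
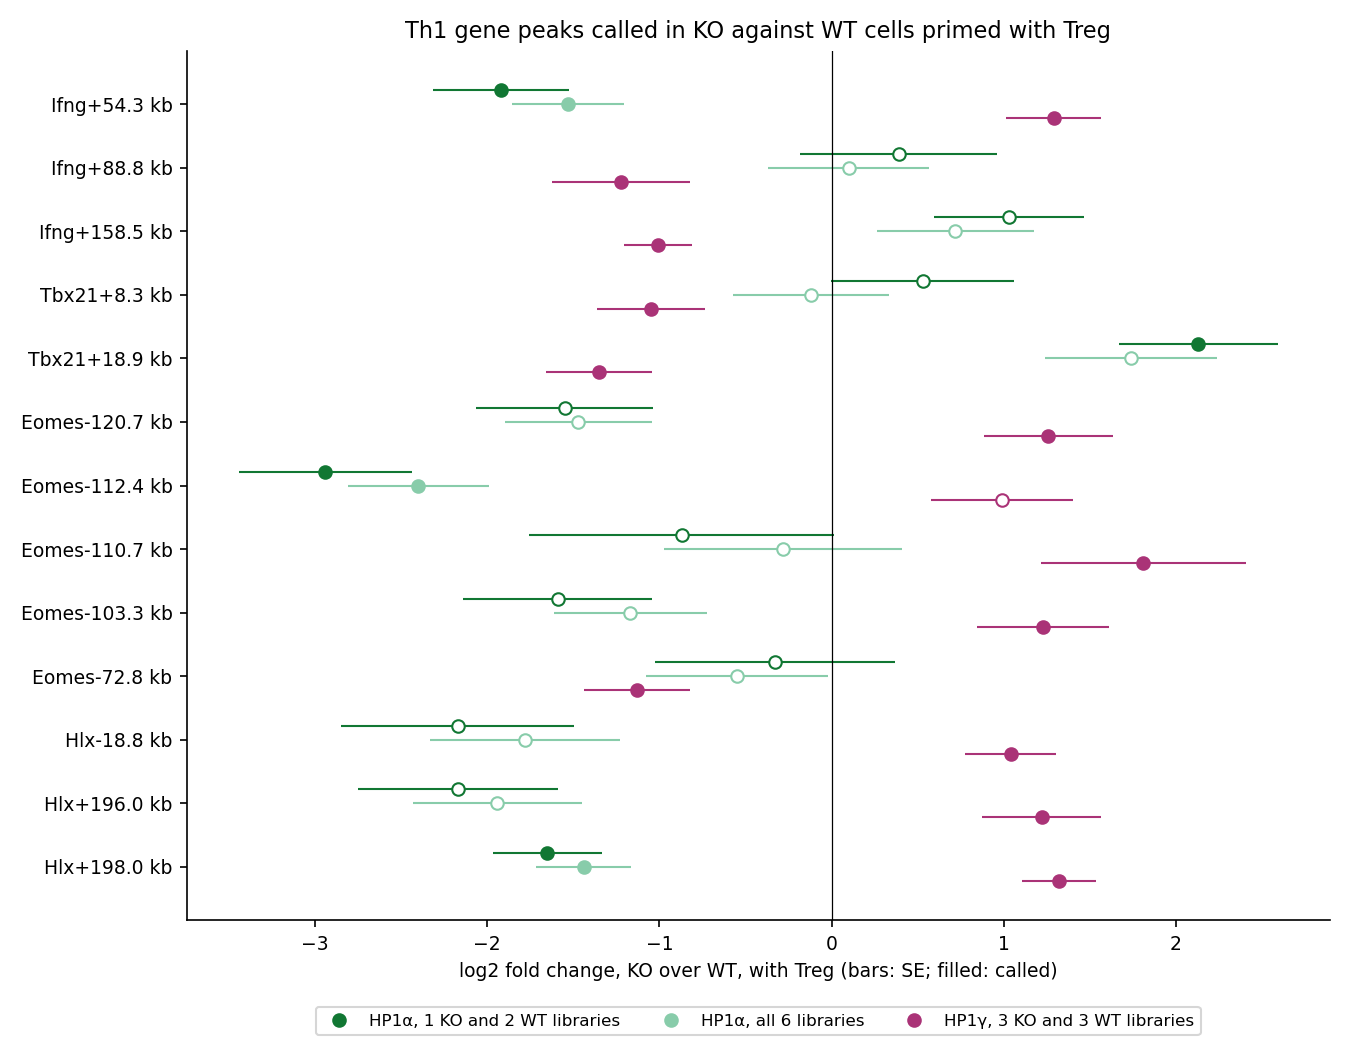
Log2 fold change of KO over WT cells with Treg (x axis; bars are SE) for the 13 member peaks called in either HP1 line (y axis). Filled points are called; the HP1α line is shown for the kept libraries and for all 6, and the HP1γ line for 3 against 3.

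HP1γ KO with Treg R1 stood apart from the other KO libraries with Treg at several of these peaks. Without it the count fell from 12 to 2 (2 higher and 0 lower, Hlx+196.0 and Hlx+198.0), with Ifng+54.3 at 0.87 and Tbx21+18.9 at -0.95 on the log2 scale, both under the fold limit. The higher Eomes peaks shrank more, Eomes-120.7 from 1.26 to 0.54, Eomes-103.3 to 0.54, Eomes-110.7 to 0.39 and Eomes-112.4 from 0.99 to 0.36, and Ifng+88.8 went from -1.22 to -0.67, while the lower Eomes peak, Eomes-72.8, stayed at -1.13 but lost its call (adjusted p = 0.0543 by edgeR). Without KO with Treg R2 the count was 24 (14 higher and 10 lower), and without WT with Treg R2 it was 3. Hlx+198.0 was called in every such comparison, at 1.09 to 1.79. The Treg genes summed to 168 to 174 CPM in HP1γ KO and 125 to 161 CPM in HP1γ WT cells with Treg, and the B cell gene to 8.28 to 11 and 4.03 to 8.43 CPM; their part was not tested.

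Side by side, the HP1α and HP1γ comparisons with Treg, which share no libraries, gave log2 fold changes of -1.92 and 1.29 at Ifng+54.3, 2.13 and -1.35 at Tbx21+18.9, -2.94 and 0.99 at Eomes-112.4 and -1.65 and 1.32 at Hlx+198.0. These are the peaks called in the HP1α line, so they were chosen by one of the values given, and the difference between the lines was not tested.

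The effect of Treg within each genotype gives the other side of the same libraries, and shares its Treg libraries with the comparisons above. In HP1α WT cells 12 of 83 members were higher with Treg than without and 4 lower, 14.5% and 4.82% against backgrounds of 4.92% and 1.84%, both above the background. The higher peaks were 7 at Eomes, 3 at Hlx and 2 at Ifng, and the lower ones 3 at Tbx21 and 1 at Ifng. DESeq2 gave 8 higher and 5 lower. Without WT with Treg R1 the count was 0 and without WT allospecific R1 it was 7 (6 higher and 1 lower). With the excluded libraries 14 were higher and 2 lower (backgrounds 5.64% and 2.14%). The 5 CD4+ T cell markers summed to 346 to 468 CPM without and 218 to 312 CPM with Treg in HP1α WT cells, while the Pax5 peak had 4.55 to 6.29 and 13.3 to 17.1 CPM and the 2 myeloid genes summed to 22.5 to 26.5 and 15.4 to 16.0 CPM; their part was not tested.

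Among the peaks that opened with Treg in HP1α WT cells, Eomes-112.4 had -0.54, 0.33 and 1.66 log2 CPM without Treg and 3.30 and 3.10 with Treg, a rise of 3.34 ± 0.466 (adjusted p = 0.00026 by edgeR). Ifng+54.3 went from 1.02, 1.90 and 1.66 to 3.43 and 3.56, a rise of 2.13 ± 0.366 (adjusted p = 0.00199 by edgeR). Ifng+19.3, in Gm67102, went from 4.35, 4.10 and 4.75 to 5.75 and 5.71, a rise of 1.41 ± 0.21 (adjusted p = 0.00064 by edgeR). The excluded WT library had 2.97, 3.38 and 5.14 log2 CPM at these 3 peaks. Libraries with and without Treg did not overlap there (16.8% of all peaks lay above and 18.5% below without overlap). The Eomes TSS peak was called too, from 4.23, 4.44 and 5.19 to 5.96 and 5.27, at 1.35 ± 0.393 (adjusted p = 0.0431 by edgeR; 5.68 log2 CPM in the excluded library), the only start site called for Treg in any of the 4 comparisons of line and genotype.

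Of the 9 Tbx21 peaks, 3 were called lower with Treg, and 1 of the 9 had a log2 fold change above 0. Tbx21+11.2 had 5.92, 5.24 and 5.80 log2 CPM without and 4.42 and 3.42 with Treg, a log2 fold change of -1.38 ± 0.302 (adjusted p = 0.00979 by edgeR). Tbx21+18.9 changed by -1.66 ± 0.459 (adjusted p = 0.0328) and Tbx21-9.1 by -1.14 ± 0.323 (adjusted p = 0.0387). The excluded library had 4.25, 1.71 and 3.72 log2 CPM at Tbx21+11.2, Tbx21+18.9 and Tbx21-9.1; with it Tbx21+11.2 was called at -1.40 ± 0.381, while Tbx21+18.9 (-1.59 ± 0.498, adjusted p = 0.0501 by edgeR) and Tbx21-9.1 (-0.99, under the fold limit) were not. Ifng+88.8, in Ifngas1, went from 1.82, 1.72 and 1.90 to 0.13 and -0.80, at -1.79 ± 0.454 (adjusted p = 0.0179 by edgeR). The value of -0.80 rested on 1 read, and the excluded library stood at 1.61, close to the cells without Treg; with it the change was -1.23 ± 0.388 (adjusted p = 0.0465 by edgeR).

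In HP1α KO cells 0 members were higher and 1 lower with Treg (0% and 1.2%, backgrounds 0.264% and 0.284%), with 5 at an unadjusted p under 0.05. The lower peak was Ifng+88.8, which had 1.78, 1.73 and 1.95 log2 CPM without and 0.42 with Treg, at -1.37 ± 0.254 (adjusted p = 0.0146 by edgeR). This set 1 KO library with Treg against 3 without; the excluded KO libraries stood at 1.05 and 1.22, and with them the change was -1.16 ± 0.228 (adjusted p = 0.00802 by edgeR), with 0 higher and 1 lower member called (backgrounds 0.887% and 0.576%). The test of whether the Treg effect differed between HP1α genotypes called 0 of 83 (background 0% higher and 0.0461% lower), with 17 members at an unadjusted p under 0.05 and 0 calls by DESeq2. Its value at Eomes-112.4 was -2.93 ± 0.664 (adjusted p = 0.12 by edgeR), at Tbx21+18.9 1.80 ± 0.513 (adjusted p = 0.228) and at Tbx21+11.2 1.40 ± 0.38 (adjusted p = 0.206). Without HP1α KO allospecific R1 that test called 3. With the excluded libraries it called 0 (background 0% in either direction), with 15 members at an unadjusted p under 0.05, and its value was -2.46 ± 0.59 at Eomes-112.4, 1.36 ± 0.566 at Tbx21+18.9 and 0.91 ± 0.469 at Tbx21+11.2.

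In HP1γ WT cells 0 members were called with Treg (backgrounds 0.0671% and 0.0699%), with 14 at an unadjusted p under 0.05 and 3 calls by DESeq2; Ifng+54.3 changed by 0.86 ± 0.368 (adjusted p = 0.207 by edgeR). In HP1γ KO cells 5 were higher and 5 lower, 6.02% each against 6.1% and 2.06%, with 5 and 1 under the GC correction, 4 and 6 with library size alone and 1 and 1 with DESeq2. Ifng+54.3 went from 1.48, 1.14 and 0.96 log2 CPM to 3.36, 2.15 and 2.71 without overlap (11.3% of all peaks lay above and 11% below), at 1.65 ± 0.273 (adjusted p = 0.00081 by edgeR). Ifng+158.5 went from 4.57, 4.17 and 4.62 to 3.04, 3.78 and 3.44, at -1.06 ± 0.189 (adjusted p = 0.00134 by edgeR).

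In these HP1γ KO cells the Pax5 peak had 5.03 to 6.41 CPM without and 8.28 to 11 CPM with Treg, and the Treg genes summed to 152 to 157 and 168 to 174 CPM; their part was not tested. The count of 10 in HP1γ KO cells was 2 without KO with Treg R1, 23 without KO with Treg R2 and 5 without KO allospecific R1. The test of whether the Treg effect differed between HP1γ genotypes called 0 of 83 (background 0.0014% higher and 0% lower), with 10 members at an unadjusted p under 0.05 and 1 call by DESeq2.

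The other genes of the Th1 pathway opened with activation as well. Of 122 peaks of 11 genes that carry signals in (receptors for interleukin-12, -18 and -27 and interferon-γ, and their kinases and STAT proteins), 70 rose and 9 fell in HP1γ WT allospecific against naive cells, and 63 and 9 in HP1α WT. Of all peaks, 24.5% rose and 22% fell in HP1γ WT, and 24.9% and 17.5% in HP1α WT. Of 106 peaks of 5 nuclear partners, 57 rose in either line, and 13 and 11 fell. Of 65 peaks of 6 product genes, 40 and 37 rose and 3 and 4 fell. The 201 peaks of 6 regulators of other helper states had 116 and 111 higher and 27 and 21 lower, or 57.7% and 55.2% higher, beside 57.4% and 51.6% for the signal genes.

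In HP1γ KO against WT cells with Treg, the signal genes had 11 higher and 18 lower peaks (9.02% and 14.8%, against 6.48% and 5.38% of all peaks). The higher peaks included 5 of the 23 at Jak2, a kinase of these receptors, which also had 2 lower, and 1 of 12 at Stat4. Il12rb2, the inducible chain of the interleukin-12 receptor, had 1 higher and 8 lower of 14, the most changed at -2.17 ± 0.324 (adjusted p = 2.56e-04 by edgeR). Il18rap, a chain of the interleukin-18 receptor, had 0 higher and 4 lower of 10. Ifngr1 and Ifngr2, the chains of the interferon-γ receptor, each had 0 higher and 2 lower. These list counts come from the main fit alone, while the member count of this comparison ranged from 2 to 24 with a library left out. Nuclear partners had 1 higher and 7 lower (0.943% and 6.6%), of which 4 lower were at Runx3, a partner of T-bet, products had 3 and 4 (4.62% and 6.15%), and the other regulators 20 and 16 (9.95% and 7.96%). Without Treg, HP1γ KO against WT cells had 1 higher and 6 lower peaks of signal genes (0.82% and 4.92%, against 1.69% and 1.66% of all peaks), 0 and 2 of partners, 0 and 0 of products and 0 and 16 of the other regulators (0% and 7.96%), 9 of them at Gata3, 4 at Maf and 3 at Rora. In HP1α KO against WT cells with Treg, where 0.218% and 1.42% of all peaks were called, the counts were 3 higher and 1 lower (signals), 0 and 0 (partners), 0 and 0 (products) and 0 and 13 (other regulators, of which 8 at Maf, 3 at Bcl6 and 2 at Gata3), and with all 6 libraries 0 and 0 in the Th1 lists and 0 and 3 in the last. The Th1 lists' medians in that comparison were 0.55, 0.25 and 0.34 on the log2 scale, against -0.25 for the other regulators and -0.11 for all peaks, and with all 6 libraries 0.35, 0.24 and 0.16 against -0.14 and -0.07.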

How the data were processed

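ATAC-seq was run on naive and allospecific CD4+ T cells of the 2 HP1 lines. Per the labels and the study's methods, the authors trimmed reads with Trim Galore 0.6.7, aligned them to GRCm39 with BWA-MEM 2 and removed duplicates. They called open regions in each sample with HMMRATAC and merged the regions over samples with BEDTools. Read pairs per merged region were counted with featureCounts 2.0.3, in which a pair could count for several regions. The deposited table holds these raw counts, not normalized, for 36 libraries of 1.49 to 96.8 M reads (M, 1000000) and 71512 regions; the 3 regions without width were dropped. Merging widens regions, so that nearby elements can share a peak, and a deep library contributes more regions to the merged set.

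Each peak was assigned to the protein-coding TSS nearest to its midpoint (pysam 0.24.0 and pandas 2.3.3 in Python 3.11.15). The members and gene lists were chosen with earlier results of these data known. The counts were tested with edgeR 4.0.16 (R 4.3.3): filterByExpr, TMM scaling and the quasi-likelihood F test, 1 fit per HP1 line over its kept libraries (15 for HP1α, 18 for HP1γ, and 18 for HP1α with the excluded libraries), each with group means for its 6 groups and Benjamini-Hochberg adjustment over all 71509 or 71508 peaks tested. For a call, the adjusted p had to be under 0.05 and the log2 fold change beyond 1 in either direction. The biological coefficient of variation was 26.6%, 22.2% and 30.6%. The SE is the log2 fold change divided by the square root of F. Levels are log2 CPM with TMM over the 36 libraries and a prior count of 2; differences of levels need not equal the fitted fold changes. The depth of a library sets its lower limit, and intervals were not computed for single counts.

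The named peaks of each gene were the peak at the start site, the peak with the highest mean level and up to 4 called peaks. The calls were those in a comparison of KO and WT or of Treg, by smallest adjusted p. Of the named peaks, Tbx21-13.6, Eomes+9.8, Eomes-118.7 and Eomes-160.5 are not described above. Every Ifng peak was listed by position. Ifng-5.5, Ifng+192.2, Ifng+202.9, Eomes-72.8, Eomes-103.3, Eomes-110.7, Hlx+264.6, Hlx+291.2 and the Eomes stretches were chosen after their values were seen. So were the 4 peaks whose sequences are shown. For marker genes and likeness, a TSS peak had any part within 1 kb (1000 bases) of a start site. The gene lists were those of Th1 signals (11 genes), nuclear partners (5), products (6) and regulators of other helper states (6), and markers of CD4+ and CD8+ T, natural killer, B, myeloid and regulatory T cells. Whether equal replicate numbers paired libraries was judged from how their deviations from group means correlated: every pair exceeded 0.1 for HP1α KO and WT naive cells (0.25 to 0.50), HP1γ KO and WT cells with Treg (0.15 to 0.32) and HP1γ WT cells with and without Treg (0.20 to 0.29), but not in the other comparisons. The alternatives were library size alone, DESeq2 1.42.0, no filter, the replicate number as a block, GC offsets and the log2 of depth as a covariate. Others were the block with GC offsets or log2 depth, a fit of only the groups compared, all peaks within 50 kb, and each library left out. Chosen after seeing the data were the legacy form of the quasi-likelihood fit and, for the Treg effects in HP1α cells, a fit with the excluded libraries. The code was tested on simulated data.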

Additional observations from a re-analysis of the deposited data

How the results depend on the processing

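The counts of called members from naive to allospecific cells stayed within 1.5 times under every alternative run, and 129 of the 158 counts obtained without leaving out a library did so over all 17 comparisons. In the comparisons of KO and WT, no named peak reversed a called direction. The other comparisons were not checked for this. Differences that were not called could reverse. Eomes-120.7 went from -1.55 to 1.27 in HP1α KO against WT cells with Treg when WT with Treg R1 was left out. The other 29 of the 158 counts were as follows, and the cause was not tested. For HP1α KO and WT cells with Treg (4 calls) the count was 7 with the replicate block, 8 with the block and GC offsets, 0 with log2 depth, 1 with the block and log2 depth, 0 with the legacy fit and 0 with only the groups compared. With all 6 libraries (3 calls) it was 5 with the block and GC offsets, 8 with the block and log2 depth, 0 with the legacy fit and 0 with only the groups compared. For HP1α WT cells with and without Treg (16) it was 26 with the block, 25 with the block and GC offsets and 8 with log2 depth, and for HP1α KO cells (1) it was 0 with DESeq2, 3 with the block and log2 depth and 0 with the legacy fit. The HP1α test of genotype and Treg together (0) gave 1 with GC offsets and 1 with the block and GC offsets. In the HP1γ line, naive cells (0) gave 6 with DESeq2 and 1 with the legacy fit, allospecific cells without Treg (2) gave 1 and 0, cells with Treg (12) gave 6 with the legacy fit, WT cells with and without Treg (0) gave 3 with DESeq2 and 1 with the legacy fit, KO cells with and without Treg (10) gave 2 with DESeq2, 6 with GC offsets and 4 with the legacy fit, and the test of genotype and Treg together (0) gave 1 with DESeq2. The replicate block changed no other count by over 1.5 times; in the 3 comparisons where the numbers paired the libraries its counts are those given above or as without it.

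Leaving out each library in turn gave, for HP1α KO against WT, 0 to 0 calls in naive cells, 0 to 1 without Treg, 0 to 2 with Treg and 0 to 5 with all 6 libraries, where 0 calls were left without WT with Treg R1 or KO with Treg R1 and 5 without KO with Treg R2. The ranges were 0 to 19 for HP1α WT and 1 to 1 for HP1α KO cells with and without Treg, 0 to 3 for the HP1α test of genotype and Treg together, and 55 to 59 (WT) and 52 to 59 (KO) from naive to allospecific cells. In the HP1γ line they were 0 to 0 (naive), 2 to 4 (without Treg), 2 to 24 (with Treg), 0 to 0 (WT, Treg), 2 to 23 (KO, Treg), 0 to 1 (genotype and Treg together), 57 to 63 (WT, activation) and 54 to 65 (KO, activation). Irrespective of membership, 45 peaks lay within 50 kb of the start site of a member gene. Among these 1 was higher and 0 lower in HP1α KO cells with Treg, and 1 higher and 2 lower in HP1γ KO cells with Treg.

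The precision is limited by depth and by the number of libraries: HP1α cells with Treg had 2 WT libraries and 1 KO library, and the median count of a member over all libraries was 78. A difference not called there is not shown to be absent.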
